A study of Mus musculus with 4 samples.

Results

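The 6 genes described here, Id1, Id2, Id3, Id4, Hes1 and Hes5, are well known targets of BMP and Notch signalling in neural cells, and the data show where cohesin was bound around them in mouse neural stem cells (NSCs) and astrocytes (ASTs). Their members are the Rad21 ChIP-seq peaks that start within 500 kb of the approximate position of each gene in the mouse genome build mm9. These positions were chromosome 2 at 152562000 for Id1, chromosome 12 at 25779000 for Id2, chromosome 4 at 135699000 for Id3, chromosome 13 at 48357000 for Id4, chromosome 16 at 30065000 for Hes1 and chromosome 4 at 154335000 for Hes5. Of 34562 peaks in the series, 167 met the rule, 88 of the 18405 peaks in NSCs and 79 of the 16157 in ASTs. The rule used position alone, and no measured value. Just inside the limit, the outermost NSC and AST peaks of the Id2 window both started 493.3 kb away (fold enrichment 17.6 and 10.8). Just outside it, NSC and AST peaks started 504.1 and 504.0 kb from Hes1 (17.2 and 11.4) and 505.9 and 506.0 kb from Id3 (11.7 and 5.38).

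Serum-free medium carried EGF and FGF for NSCs but BMP and FGF for ASTs, laminin was also used, and the cells were otherwise untreated. The NSCs are clonal populations derived from embryonic stem cells, and the ASTs are their post-mitotic progeny obtained with BMP. No source used here gives the genotype of the cells used for ChIP-seq. The series has 4 libraries, a single Rad21 library and its input from each cell type, so replicate error is unknown for every difference between NSCs and ASTs and no p-value was computed. Peak lists carry no expression, so the labelled cell types could not be checked against marker genes, and expression of the 6 genes was not analysed here.

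BMP ligands activate SMAD proteins, which switch on the Id genes directly. Id proteins lack a DNA-binding region and act by pairing with basic helix-loop-helix factors, which keeps those factors from driving neuronal genes. Notch receptors release a fragment that joins the DNA-binding protein RBPJ and switches on Hes1 and Hes5, which encode repressors that hold neural precursors undifferentiated. Rad21 is a core subunit of cohesin, the ring complex that holds chromatin loops, often at sites bound by CTCF.

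RefSeq promoter sequences were matched for 4 of the 6 genes and are shown here because SMADs and RBPJ act on these genes through DNA elements of known letters, which can be looked for near their starts. Each is the 250 bases before the transcription start, 5′ to 3′ on the gene's strand, in build GRCm38.p6, whose coordinates cannot be set against the mm9 peaks. Capitals mark matches on either strand to GGCGCC, the GC-rich element that SMADs bind in BMP targets, to TGGGAA, the core of the RBPJ site, and to AGNGGGC, a part of the CTCF consensus. The positions are chr12:25096093-25096342 on the minus strand for Id2, and on the plus strand chr4:136143572-136143821 for Id3, chr13:48260866-48261115 for Id4 and chr4:154960673-154960922 for Hes5.
Id2: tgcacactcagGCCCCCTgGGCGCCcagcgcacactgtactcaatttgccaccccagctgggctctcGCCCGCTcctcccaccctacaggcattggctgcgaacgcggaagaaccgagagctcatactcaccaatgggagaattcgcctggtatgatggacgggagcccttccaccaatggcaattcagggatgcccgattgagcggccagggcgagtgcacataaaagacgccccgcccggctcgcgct
Id3: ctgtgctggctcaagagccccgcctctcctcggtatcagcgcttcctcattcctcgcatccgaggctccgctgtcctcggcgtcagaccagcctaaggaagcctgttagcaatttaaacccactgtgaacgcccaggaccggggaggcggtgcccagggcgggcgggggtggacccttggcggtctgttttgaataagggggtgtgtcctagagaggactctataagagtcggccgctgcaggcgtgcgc
Id4: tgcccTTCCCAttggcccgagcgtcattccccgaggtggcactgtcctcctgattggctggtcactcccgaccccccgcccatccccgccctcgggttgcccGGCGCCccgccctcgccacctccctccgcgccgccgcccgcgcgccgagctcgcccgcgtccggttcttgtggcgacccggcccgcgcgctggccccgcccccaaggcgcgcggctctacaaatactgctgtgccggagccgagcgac
Hes5: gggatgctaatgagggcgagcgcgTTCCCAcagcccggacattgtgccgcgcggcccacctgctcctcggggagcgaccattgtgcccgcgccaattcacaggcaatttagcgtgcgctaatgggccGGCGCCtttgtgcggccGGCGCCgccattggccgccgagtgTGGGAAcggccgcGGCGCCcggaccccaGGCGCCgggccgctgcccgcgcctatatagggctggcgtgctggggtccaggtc
Hes5 held 4 matches to the SMAD element and 2 to the RBPJ core, with no overlap between them. Id4 held 1 match to each of these, Id2 held 1 to the SMAD element and 2 to the part of the CTCF consensus, and Id3 held none of the 3. Among 32851 promoter sequences of the same length, 9.59% held the SMAD element, 21.6% the RBPJ core and 22.4% the CTCF letters. The sequences of Id2, Id3, Id4 and Hes5 were 62.8%, 62.8%, 75.6% and 71.6% G or C, against a median of 52.4% over all promoters. As the SMAD element is all G and C, its share among all promoters is not a like comparison for these 4. These matches are a description of the letters, and binding at them was not measured.

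Rad21 peaks were dense around these genes in both cell types. The 6 windows of 1 Mb held on average 14.7 NSC and 13.2 AST peaks per Mb, against 6.98 and 6.13 over the whole lists. Id3 and Id1 had the fullest windows, with 19 NSC peaks each and with 21 and 16 AST peaks. Hes1 had 16 and 12 peaks, Id2 had 14 and 9, and Hes5 had 11 and 13, in NSCs and ASTs in that order. Id4 had the fewest, with 9 and 8. Among all 1 Mb windows of the genome with a peak, where the median was 7 in NSCs and 6 in ASTs, as many peaks as around Id3, or more, were found in 5.22% of NSC and 1.43% of AST windows, and as many as around Id4 in 42.8% and 41.1%. The order of the genes differed between the cell types, as Hes5 and Id3 had more peaks in ASTs while the other 4 had more in NSCs.

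**Figure D1:**
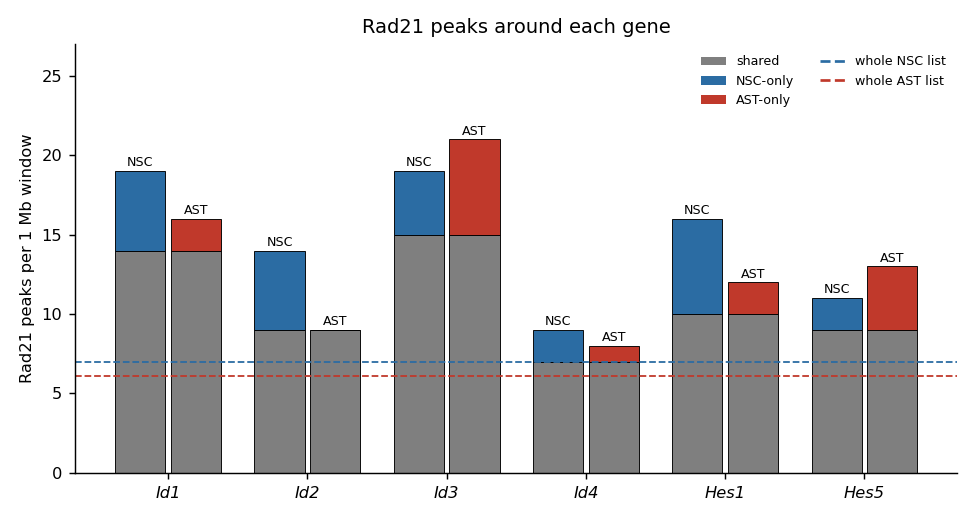
Rad21 peaks (vertical axis, count in a window of 1 Mb) around each gene (horizontal axis) in NSCs (left bar) and ASTs (right bar), with shared peaks in grey, NSC-only peaks in blue, AST-only peaks in red and the peaks per Mb of the whole lists as dashed lines. All 12 bars stand above the dashed line of their list, from 8 peaks for Id4 in ASTs to 21 for Id3 in ASTs.

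Most of these sites were common to stem cells and astrocytes. Peaks of the 2 lists with 1 bp or more in common were called shared. Of the 88 NSC peaks, 64 were found in ASTs (72.7%, exact 95% binomial interval 62.2 to 81.7), against 65.5% of the whole NSC list. Of the 79 AST peaks, 64 were found in NSCs (81.0%, 70.6 to 89.0), against 74.7% of the whole AST list. Both intervals include the share of the whole list, so a difference in sharing between these genes and the rest was not detectable at these counts. The intervals cover counting error only.

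By gene, sharing of NSC peaks ran from 62.5% around Hes1 (10 of 16, 35.4 to 84.8) to 81.8% around Hes5 (9 of 11, 48.2 to 97.7). Sharing of AST peaks ran from 69.2% around Hes5 (9 of 13, 38.6 to 90.9) to 100% around Id2 (9 of 9, 66.4 to 100). The intervals of all 6 genes overlap in each list. They count neighbouring peaks as independent, and a difference in sharing between genes was not tested. Id2 was the gene with no AST-only peak, and Id3 had the most, with 6.

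Shared sites matched closely in position. The summits of the 64 shared pairs lay a median of 20.5 bp apart, against 19 bp over all 12033 pairs of the genome. Of the 64, 57 were within 50 bp (89.1%), against 88.4% of all pairs, so this closeness was not particular to these genes. The widest difference, 135 bp, was at Hes1. The NSC peak was the wider of the pair in 40 of 64 (62.5%), against 73.3% over all pairs.

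The height of each peak is given as fold enrichment, the fragment pile-up at the summit divided by the local background of the same library. Its median around the 6 genes was 7.86 in NSCs, with quartiles of 5.86 and 14.7, against 8.66 for the whole list. In ASTs it was 8.75, with quartiles of 6.72 and 12.3, against 7.98. Shared sites were the stronger ones here as elsewhere: NSC peaks had a median of 10.4 where shared and 6.16 where not, and AST peaks had 9.51 and 6.59. Peak width had a median of 221 bp in NSCs (130 to 608) and 211 bp in ASTs (129 to 572), against 232 and 204 bp for the whole lists. Adjacent starts were a median of 38.0 kb apart in NSCs and 48.1 kb in ASTs, against 58.9 and 68.1 kb.

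**Figure D2:**
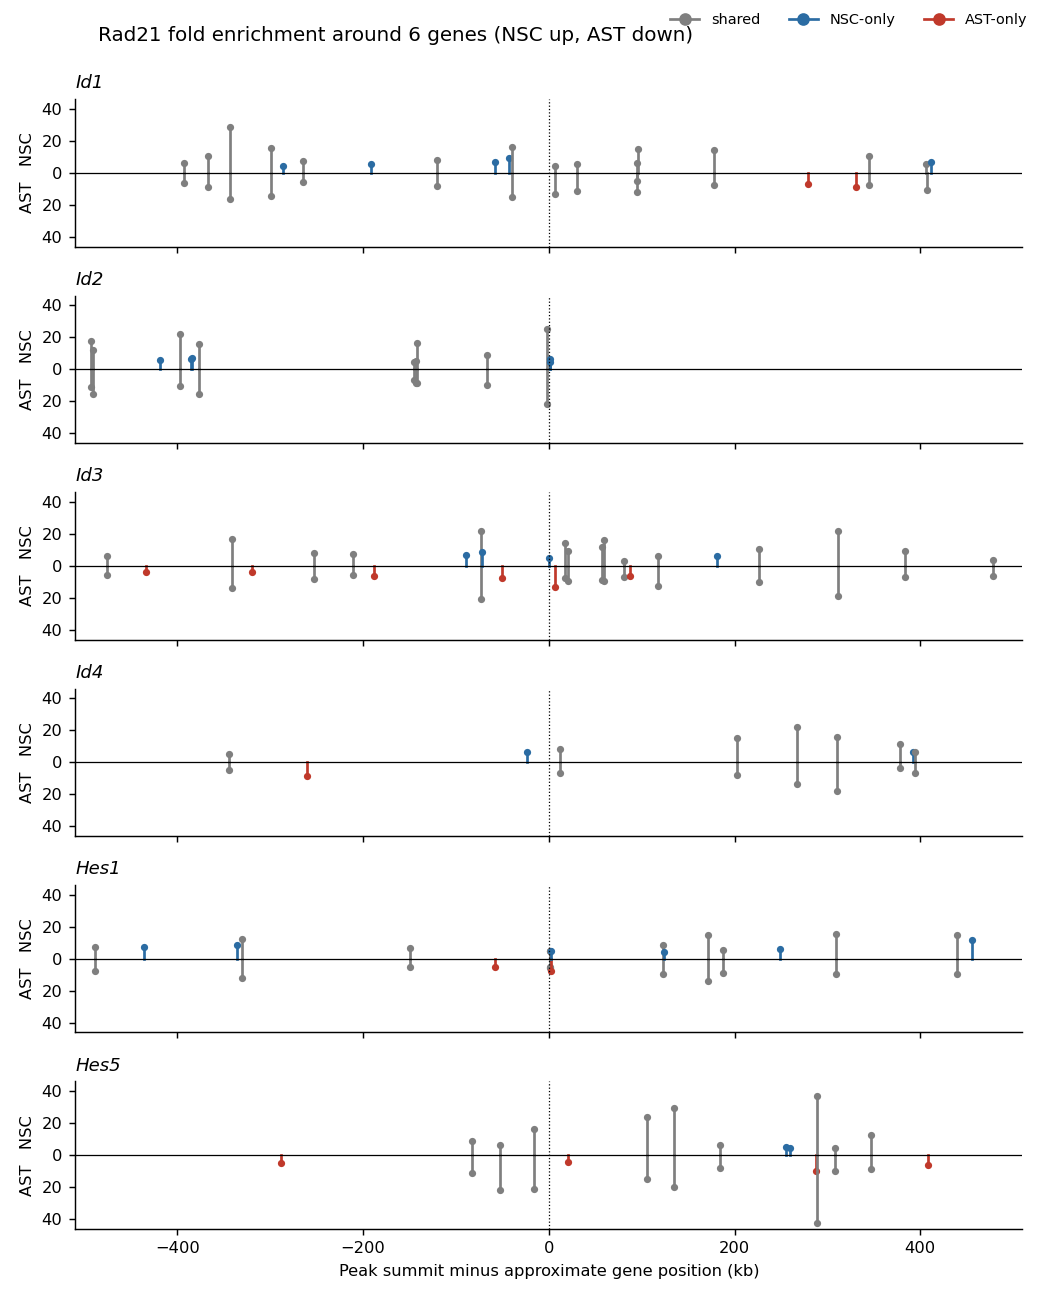
Rad21 peaks around the 6 genes, by distance of the summit from the approximate gene position (kb, horizontal axis), with fold enrichment drawn upward for NSCs and downward for ASTs (vertical axis). Shared peaks are grey, NSC-only blue and AST-only red. The tallest site in both directions lies 288.5 kb above Hes5, and the right side of Id2 is empty beyond 1.79 kb.

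The counts of fragments behind these values were worked back from the deposited fold enrichment and p of each peak, and are called the recovered pile-up and the recovered background below. Over all 12033 pairs of the genome the median log2 ratio of AST to NSC pile-up was −0.72. Equal pile-ups in the 2 lists thus lie above the usual ratio. A background over 1.1 times the usual level of its list was called raised, which held for 25 of the 88 NSC peaks (28.4%, against 26.8% of the whole list) and 17 of the 79 AST peaks (21.5%, against 33.8%). Distances are from summit to gene position, and "below" and "above" mean towards lower and higher coordinates.

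Id1 is a direct target of BMP-activated SMADs, and in RefSeq its coding neighbours are Mcts2 below and Cox4i2 above. The nearest Rad21 site lay 6.4 kb above it and was found in both cell types, at 152568302 to 152568503 in NSCs and 152568259 to 152568536 in ASTs. The fold enrichment there was 4.15 in NSCs and 13.3 in ASTs, or 3.45% and 86.1% of the way up the respective lists. The recovered pile-up was 22 fragments in NSCs (exact 95% Poisson interval 13.8 to 33.3) and 35 in ASTs (24.4 to 48.7), and the NSC background was 1.56 times the usual level. This site thus ranked near the bottom of the NSC list and in the upper part of the AST list.

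The next site above Id1, at 30.4 kb, also differed in fold enrichment, at 5.85 in NSCs and 11.4 in ASTs. The pile-ups there were nearly equal, 31 and 30 fragments, which is 0.67 (log2) above the usual ratio of AST to NSC. The NSC background was 1.55 times the usual. The nearest site below, at 39.3 kb, was alike in rank, with 16.4 in NSCs and 14.8 in ASTs. An NSC-only peak stood 3.5 kb further down, 42.8 kb below Id1, with a fold enrichment of 9.09 and a pile-up of 31 fragments, the highest fold enrichment among the 5 NSC-only peaks of this window. The strongest site of the Id1 window was 343.3 kb below the gene in both cell types, at 28.5 in NSCs and 15.97 in ASTs. The higher of the 2 AST-only peaks lay 330.4 kb above, at 8.75.

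Id2, another SMAD target, had the strongest site within 50 kb of any of the 6 genes. It lay 1.7 kb below the gene position, at 25777164 to 25777520 in NSCs and 25777038 to 25777609 in ASTs, and was the strongest site of its window in ASTs and in NSCs. The fold enrichment was 24.9 in NSCs and 21.7 in ASTs, 97.0% and 98.3% of the way up the lists, on pile-ups of 85 (67.9 to 105.1) and 57 (43.2 to 73.9) fragments. The summits were 10 bp apart, and the AST peak, at 572 bp, was the widest AST peak around the 6 genes.

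On the other side of the Id2 position there were 2 weak NSC-only peaks, 1.16 and 1.79 kb above it. Their fold enrichments were 6.45 and 4.69, on 22 and 16 fragments, and their −log10 q values were 7.27 and 3.58. The nearest AST summits were 2.86 and 3.49 kb away. Above these the region was empty of peaks well past the edge of the window. The next summit lay 977.6 kb above Id2 in NSCs and 733.0 kb above it in ASTs, so that the peak-free span was 975.8 kb in NSCs and 734.7 kb in ASTs. Spans as long or longer made up 1.74% of gaps between adjacent NSC summits and 3.43% of AST gaps. Within the Id2 window the sites came in close groups, with 7 of 13 NSC gaps and 3 of 8 AST gaps between starts under 10 kb, against 15.8% and 13.4% of gaps over the whole lists. The group 141.7 to 145.6 kb below Id2 held 3 shared sites. From the nearest to the farthest, their fold enrichments were 16.7, 4.99 and 4.4 in NSCs and 8.75, 8.36 and 6.84 in ASTs. The farthest had an NSC background of 1.87 times the usual. The highest NSC-only peak of the window by fold enrichment lay 383.7 kb below, at 7.33.

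Id3 lies between the coding genes Rpl11 and E2f2 in RefSeq, and it had a peak of each cell type alone close by. An NSC-only peak lay just above the gene position, at 135699084 to 135699340 with its summit 213 bp away. It was weak, with a fold enrichment of 4.69, a pile-up of 16 fragments and a −log10 q of 3.58. An AST-only peak stood 6.8 kb above the gene, at 135705723 to 135705939. Its fold enrichment of 12.9 on 34 fragments (23.5 to 47.5) was the highest of all 15 AST-only peaks around the 6 genes, and its background was at the usual level. The nearest NSC summit was 6.61 kb away, at the weak peak beside the gene position.

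Further above Id3 came shared sites at 17.2 and 20.6 kb. At the former the fold enrichment was 14.5 in NSCs and 7.60 in ASTs, with a background of 1.21 times the usual level in NSCs and 1.8 times in ASTs. At the latter it was 9.21 and 9.37, with an NSC background of 1.37 times the usual. The nearest AST peak below was AST-only, 50.4 kb from the gene at 7.92, and the nearest NSC peak below was NSC-only, 71.5 kb away at 8.76. A strong shared site lay just beyond, 73.0 kb below, with 21.4 in NSCs and 20.9 in ASTs. It was the strongest AST site of the window and tied in NSCs with a shared site 311.9 kb above, which stood at 18.6 in ASTs. Background was raised at 8 of 19 NSC peaks around Id3 (42.1%, against 26.8% of the whole list). In ASTs it was raised at 7 of 21 (33.3%), near the 33.8% of the whole list. It reached 6.22 times the usual in NSCs and 3.14 times in ASTs at the shared site 478.4 kb above.

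Id4 was the gene with the fewest sites. The nearest Rad21 peak was shared and lay 12.3 kb above it, at 48369126 to 48369368 in NSCs and 48369222 to 48369352 in ASTs. The fold enrichment was 7.97 in NSCs and 6.46 in ASTs, on 45 (32.8 to 60.2) and 17 (9.90 to 27.2) fragments, with an NSC background of 1.66 times the usual. Below the gene there was an NSC-only peak at 23.9 kb, with a fold enrichment of 6.16 on 21 fragments, equal to the other NSC-only peak of the window, 392.3 kb above. In ASTs the nearest summit below was 260.6 kb away, at the single AST-only peak of the window (8.36), which left a span of 272.8 kb without an AST peak over the gene. Such spans or longer made up 13.0% of AST gaps. The strongest sites of the window lay far above the gene, at 267.1 kb in NSCs (22.0, with 13.3 in ASTs) and at 310.8 kb in ASTs (17.8, with 15.7 in NSCs).

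**Figure D3:**
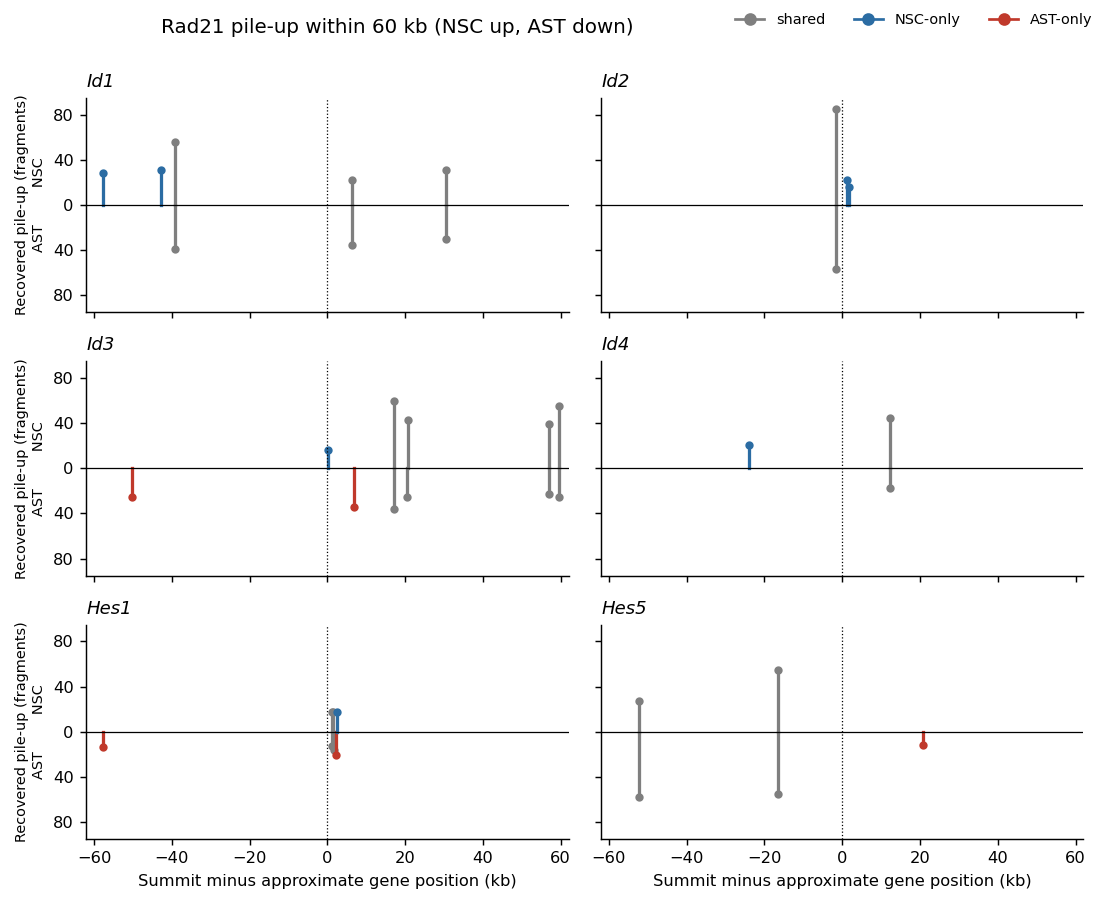
Recovered pile-up at the summit (fragments, vertical axis, NSCs upward and ASTs downward) of Rad21 peaks within 60 kb of each gene position (kb, horizontal axis). Shared peaks are grey, NSC-only blue and AST-only red. The site beside Id2 reaches 85 fragments in NSCs and 57 in ASTs, the peaks beside Hes1 reach at most 21, and Hes5 has no peak between 16.4 kb below and 20.9 kb above.

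Hes1, a Notch target with Opa1 below and Cpn2 above in RefSeq, was marked by a row of mostly weak peaks just above the gene position. There were 3 in each cell type, within 1.20 to 2.51 kb. In NSCs their summits were at 1.295, 1.51 and 2.51 kb, and each had a fold enrichment of 4.99 on 17 fragments (9.90 to 27.2). In ASTs they were at 1.20, 1.64 and 2.29 kb, with fold enrichments of 4.94, 6.08 and 7.98 on 13 (6.92 to 22.2), 16 (9.15 to 26.0) and 21 (13.0 to 32.1) fragments. The 2 nearest peaks of each list overlapped those of the other, and the farthest did not, the summits being 221 bp apart. When gaps of up to 1 kb were bridged, this last peak counted as shared. The nearest pair, with summits 92 bp apart, no longer counted as shared when a reciprocal overlap of 0.5 was required. All 6 peaks had the usual background of their list. Those of NSCs ranked at 11.3% of the way up, and those of ASTs at 9.01%, 24.5% and 51.3%, from nearest to farthest.

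Below Hes1 the nearest NSC peak was 149.5 kb away, while ASTs had a weak AST-only peak 57.6 kb below (5.09 on 14 fragments). The NSC span without a peak was 150.8 kb, and 22.6% of NSC gaps were as long or longer. The nearest strong site was shared, 171.6 kb above, with 14.7 in NSCs and 13.7 in ASTs, the highest AST value of the window. The highest NSC value, 15.6, was at 309.6 kb above, where ASTs had 9.51. An NSC-only peak of 449 bp lay 455.8 kb above, at 30520453 to 30520901, with a fold enrichment of 11.4 on 39 fragments. It was the highest of all 24 NSC-only peaks around the 6 genes, and the nearest AST summit was 16.5 kb away. The AST-only peak of highest fold enrichment was the one beside the gene, at 7.98.

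Hes5, the other Notch target, lies between Tnfrsf14 and Pank4 in RefSeq and had no peak within 16 kb of its position. The nearest site was strong and shared, 16.4 kb below, at 154318368 to 154318718 in NSCs and 154318374 to 154318714 in ASTs, with a fold enrichment of 16.1 and 20.9. The pile-up was 55 fragments (41.4 to 71.6) in each cell type, 0.72 (log2) above the usual ratio of AST to NSC. On the other side the nearest AST peak was weak and AST-only, 20.9 kb above (4.56 on 12 fragments), and the nearest NSC peak was 105.3 kb above, a shared site of 24.1 in NSCs and 15.2 in ASTs.

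The site 52.2 kb below Hes5 had the largest ratio of fold enrichment between the cell types of all 64 shared pairs, though by rank within the lists the site 6.4 kb above Id1 differed more. It lay at 154282700 to 154282921 in NSCs and 154282696 to 154282928 in ASTs, with summits 7 bp apart. The fold enrichment was 6.37 in NSCs and 22.05 in ASTs, or 28.6% and 98.4% of the way up the lists. The recovered pile-up was 27 fragments in NSCs (17.8 to 39.3) and 58 in ASTs (44.0 to 74.98), and the NSC background was 1.24 times the usual. The 2 counting intervals do not overlap, though they do not include variation between libraries. They also do not allow for this pair having been picked as the largest of 64.

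The strongest site around any of the 6 genes lay 288.5 kb above Hes5, at 154623135 to 154623742 in NSCs and 154623245 to 154623697 in ASTs. Its fold enrichment was 37.0 in NSCs and 42.2 in ASTs, on 126 and 111 fragments, 99.7% and 99.9% of the way up the lists. The AST-only peak of highest fold enrichment in this window, 9.89, stood 1.17 kb from it, 287.4 kb above the gene. The higher of the 2 NSC-only peaks was 255.1 kb above, at 4.99. Far below the gene NSCs had no peak between 82.9 and 687.7 kb, a stretch in which ASTs had 1 weak AST-only peak, 288.2 kb below (5.24 on 16 fragments).

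To compare shared sites between lists, the log2 ratio of AST to NSC fold enrichment was taken for each pair, less the median over all 12033 pairs of the genome, where the NSC value was 1.26 times the AST value. A pair was called when this difference passed 1, which is 2-fold. Around the 6 genes 10 of 64 pairs were called higher in ASTs, against 5.8% of all pairs, and 1 of 64 was called higher in NSCs, against 5.29%. The 64 pairs had a median of 0.22 (log2), and 42 lay above the usual ratio and 22 below it. Hes5 had the highest median, 0.68 over 9 pairs, and Id4 the lowest, 0.03 over 7. With 1 library per cell type these are differences between libraries.

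**Figure D4:**
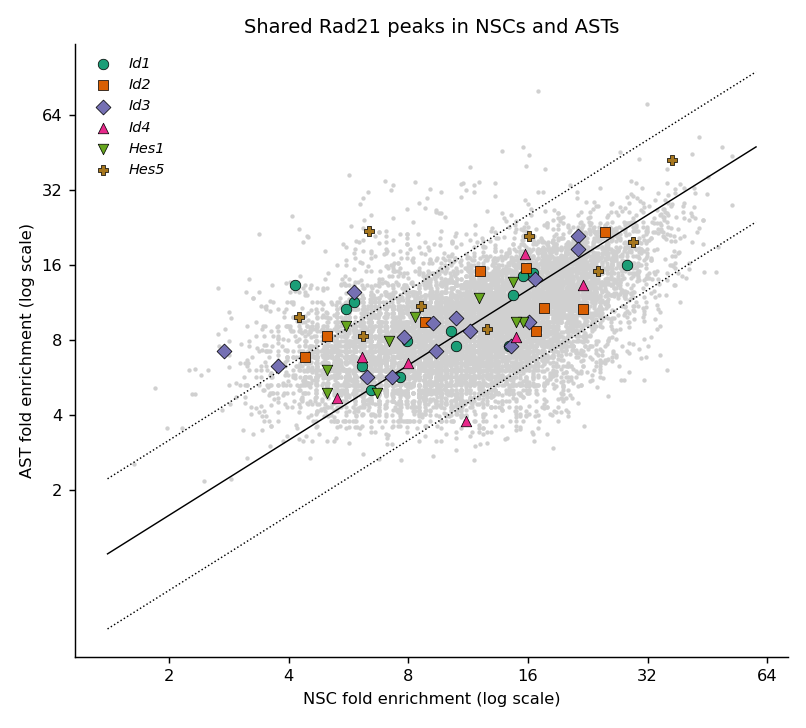
Fold enrichment of shared Rad21 peaks in NSCs (horizontal axis, log scale) and ASTs (vertical axis, log scale), with all 12033 pairs in light grey and the 64 pairs around the 6 genes marked by gene. The solid line is the median ratio of all pairs and the dotted lines are 2-fold to either side, with 10 marked pairs above the upper line and 1, from the Id4 window, below the lower line.

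The 10 pairs higher in ASTs were spread over 5 of the genes, 3 each at Id1 and Id3, 2 at Hes5 and 1 each at Id2 and Hes1. The largest were the pair 52.2 kb below Hes5 (2.12, log2 less the usual) and the pair 6.4 kb above Id1 (2.01). The others at Id1 were 30.4 kb (1.29) and 406.7 kb (1.27) above. At Id3 they were 81.1 kb (1.72), 117.5 kb (1.43) and 478.4 kb (1.07) above. At Hes5 the second was 307.8 kb above (1.55), at Id2 it was 143.3 kb below (1.07), and at Hes1 187.4 kb above (1.04). The pair higher in NSCs was 378.1 kb above Id4 (−1.22).

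Local background moved with several of these values. At the 3 Id3 pairs the NSC background was 3.41, 2.47 and 6.22 times the usual level, and at the Id4 pair the AST background was 2.10 times the usual. On the recovered pile-up, taken as AST to NSC less the median of all pairs, the Id3 pairs stood at −0.04, 0.15 and 0.09 and the Id4 pair at −0.14, so none of these 4 was past the limit. The pair 30.4 kb above Id1 fell to 0.67. The remaining 6 stayed past the limit, at 1.82 for Hes5 below the gene, 1.39 for Id1 at 6.4 kb, 1.28 for Id1 at 406.7 kb, 1.25 for Hes5 above the gene, 1.09 for Id2 and 1.05 for Hes1. Apart from the Hes5 pair below the gene, they rest on 17 to 22 fragments in NSCs and 22 to 35 in ASTs. In each of those pairs the counting intervals of the NSC and AST pile-ups overlap. Of these 6, only the Hes5 pair below the gene was still a pair, and called, at a −log10 q of at least 5, and none at 10. Its NSC peak had a −log10 q of 9.45, and the NSC peaks of the others had 3.06 to 4.97. The thresholds thus removed the NSC peaks themselves, and the differences were not measured again. At 10 the 3 called pairs were 30.4 kb above Id1 and 117.5 and 478.4 kb above Id3, all under the limit on pile-up. A further pair passed on pile-up alone, 344.1 kb below Id4 (1.25), where the AST background was 2.10 times the usual. In all, 7 of 64 pairs were called higher in ASTs on pile-up and none in NSCs, against 3.01% and 1.82% of all pairs.

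**Figure D5:**
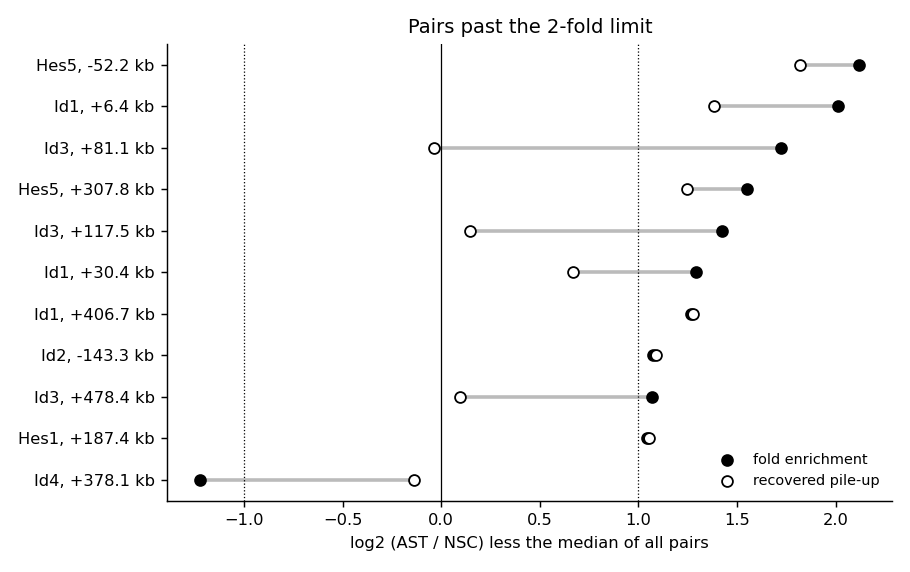
Difference between cell types (horizontal axis, log2 of AST over NSC less the median of all pairs) of the 11 shared pairs past 2-fold in fold enrichment, labelled by gene and distance, with fold enrichment as filled and recovered pile-up as open circles. The open circles of the 3 Id3 pairs and the Id4 pair lie near 0, and those of both Hes5 pairs, 2 of 3 Id1 pairs, the Id2 pair and the Hes1 pair stay right of the dotted line at 1.

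The 24 NSC-only and 15 AST-only peaks were mostly weak, as such peaks were over the whole lists. Their median fold enrichment was 6.16 and 6.59, against 6.13 and 6.46 for all NSC-only and AST-only peaks. Around the 6 genes the fold enrichments ran from 4.02 to 11.4 in NSCs and from 3.64 to 12.9 in ASTs. A −log10 q of 10 was reached by 7 of the NSC-only and 6 of the AST-only peaks. A summit of the other list lay within 5 kb for 8 of the 24 and 2 of the 15, and within 1 kb for 1 of each, the peaks beside Hes1. The matching shares by q and by distance over all NSC-only and AST-only peaks were not computed. A site missing from a list is a site that was not called there and need not be unbound.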

How the data were processed

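Rad21 ChIP-seq was done in NSCs and ASTs, with 1 Rad21 and 1 input library each, 4 in all, grouped by the sample labels. Bowtie 1.0.0, MACS2 2.0.9 and build mm9 are named in the submitters' processing notes, without settings. The authors deposited 1 peak list per cell type with start, end and summit. Fold enrichment, as deposited, is the ratio of pile-up to local background, and the deposited p and q are −log10 values. Read totals were not given in the files used here, so depth is known only through the recovered pile-up.

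Members and gene lists were chosen with earlier results of these data known. For each gene and list, the nearest peak on each side, every peak within 50 kb, and the highest peak and cell-type-only peak by fold enrichment were to be named. Pile-up and background were recovered by taking the deposited p as the Poisson tail above the scaled pile-up, with a scale of 0.944 for NSCs and 1 for ASTs. Recomputed −log10 p lay within 0.05 of the deposited value in 99.7% of NSC and 99.99% of AST peaks. The median background of peaks whose fold enrichment passed 8, called usual, was 3.22 and 2.63 fragments. On 2000 simulated peaks per list, made with the same formula and scale, the pile-up was recovered exactly for 99.3% in NSCs and 99.85% in ASTs. This checks the inversion alone, and cannot show whether the deposited values follow the formula. Pairs were mutual largest overlaps. Gene neighbours and promoters came from RefSeq (GRCm38.p6), and no coordinate was converted. Gene positions are approximate, and placement in exons or introns was not analysed here. Tools were scipy 1.17.1, numpy 2.4.6, matplotlib 3.10.9 and pandas 2.3.3 under Python 3.11.15. Alternatives were stricter q thresholds, lists of equal length, other definitions of sharing, merged peaks, other windows and, added after the data were seen, pile-up and removal of raised-background peaks.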

Additional observations from a re-analysis of the deposited data

How the results depend on the processing

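No paired analysis was possible because each cell type has 1 Rad21 library. Of 378 values recomputed under other settings, 322 stayed within their counting interval, within 1.5 times for counts, or past 2-fold for called pairs, 55 moved and 1 changed sign. A called pair that was no longer a pair in the windows under a setting has no value there. Such losses are not among the 378, so the tally overstates how stable the called pairs were. The number of NSC peaks was 54 at a −log10 q of at least 10, 48 within 250 kb and 155 within 1000 kb, and that of AST peaks was 42 and 145 in these windows. The number of pairs past 2-fold, 11 as deposited, was 4 of 49 and 3 of 40 at a −log10 q of at least 5 and 10, 7 of 57 with lists of equal length, 7 of 35 within 250 kb and 17 of 117 within 1000 kb. Over all pairs of the genome the shares called higher in ASTs and in NSCs were 5.08% and 4.4% at 5, 4.54% and 3.39% at 10, and 5.26% and 5.03% with equal lengths, and did not depend on the window. Thresholds and shorter lists remove weak partners, and windows add or remove sites by construction. Settings added after the data were seen gave 7 of 64 such pairs on pile-up, against 3.01% and 1.82% of all pairs, and 3 of 36 without peaks of raised background, against 2.78% and 2.03%. The shares shared were then 57.1% in NSCs and 58.1% in ASTs, against 45.5% and 57.3% of the whole lists so treated, since removing a peak leaves its partner unshared. On pile-up the pair 81.1 kb above Id3 changed sign, to −0.0359. Counting error is wide for the weak sites, as for the 12 fragments of the AST-only peak above Hes5 (6.201 to 20.96), and the effect of depth on which peaks were called was not tested.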
